A study of Mus musculus with 4 samples.

Results

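Resident-type macrophages outside the cell cycle were 1108 of the 48428 barcodes kept from single-nucleus RNA counts of the mouse right ventricle (RV), 2.29% of them. They numbered 281 nuclei in sham 1, 288 in sham 2, 162 in RVVO 1 and 377 in RVVO 2. A member was a kept barcode (at least 200 genes and under 10% mitochondrial transcripts) with Ryr2 under 1% of its transcripts and at least 3 transcripts summed over Mrc1, F13a1, Csf1r, Dock2 and Ptprc, of which at least 1 came from Mrc1 or F13a1. A member also had at most 1 transcript of a cell cycle panel (Mki67, Top2a, Cenpe, Cenpf, Kif11 and Anln), at most 1 of Ccr2, Cd74 and the MHC II genes H2-Aa, H2-Ab1 and H2-Eb1, and at most 1 of Ptprb, Pdgfra and Pdgfrb, which mark endothelial cells, fibroblasts and pericytes. The nuclei were thus selected on their own transcript counts, and the genes of the rule are given below as a description only. Transcripts were counted as unique molecular identifiers (UMIs).

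The study asked how right ventricular volume overload (RVVO) acts on the heart before puberty. Wild-type C57/BL6J mice had either a fistula made between the abdominal aorta and the inferior vena cava on postnatal day 7 (P7), which loads the RV with volume, or sham surgery, and RV tissue was taken at P21. Each group had 2 libraries, and the sources used here do not say whether a library was 1 mouse or a pool, so p-values measure the spread between libraries, which may be technical. The sham libraries carried transcripts of Xist and almost none of Y-linked genes, and the RVVO libraries the reverse, so that surgery and the sex of the animals cannot be told apart in any comparison here.

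Resident macrophages of the heart are seeded largely before birth and renew themselves in place, whereas macrophages that express Ccr2 or high MHC II are replaced more by blood monocytes. Resident macrophages clear dying cells and cardiomyocyte debris, and release growth factors such as Igf1. Interferons, signalling through factors such as Stat2 and Irf9, switch on a broad set of antiviral genes in macrophages, as in most cell types.

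The nuclei carried the markers of the label. Levels are given as CPM, the UMIs of a gene in the summed members of a library, scaled to a total of 1000000. Slc9a9, a sodium and proton exchanger of endosomes that the rule did not use, stood at 1293 and 1764 CPM in sham 1 and sham 2, and at 1937 and 1514 in RVVO 1 and RVVO 2. That was 12.8 to 23.5 times its level in all other kept barcodes of the same library. The haemoglobin scavenger receptor Cd163 was 16.2 to 40.2 times, the hyaluronan receptor Lyve1 9.83 to 17.0 times, the phosphatidylserine receptor Timd4 7.33 to 26.7 times and Mertk, a receptor for dying cells, 5.30 to 7.98 times the level in the other barcodes. These ratios are descriptions, since the nuclei were picked for macrophage genes.

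Of the genes used for the choice, F13a1, a coagulation factor subunit, was at 3816, 4481, 6032 and 2946 CPM in sham 1, sham 2, RVVO 1 and RVVO 2, and the mannose receptor Mrc1 at 1895, 1812, 2677 and 1730. Both Mrc1 and F13a1 were found in 72.2%, 69.4%, 79.6% and 77.5% of the members, in the same order of libraries. The chemokine receptor Ccr2, held down by the rule, was at 1.41 to 5.86 CPM. The median number of panel UMIs was 13, 12, 24.5 and 15, so most members lay well above the limit of 3.

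At that limit the label was weaker. Slc9a9 was found in 27.6%, 29.2%, 25.0% and 14.3% of members with exactly 3 panel UMIs, against 10.5%, 14.9%, 20.0% and 17.3% of barcodes with 2 that met every other clause. In members with 10 or more it was found in 85.2%, 86.0%, 87.9% and 93.0%. The members with exactly 3 were 29, 24, 16 and 14 nuclei.

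Depth, the mitochondrial share and the level of transcripts of other cell types differed between the libraries. A member held a median of 1851 and 1774.5 UMIs in sham 1 and sham 2 and of 3022 and 2659 in RVVO 1 and RVVO 2, and the summed members held 706941, 611057, 557651 and 1195521 UMIs. The median share of mitochondrial transcripts in a member was 1.03% and 1.44% in sham 1 and sham 2 and 0.864% and 0.560% in RVVO 1 and RVVO 2, and in all kept barcodes 1.14%, 1.29%, 0.599% and 0.497%. It was lower in both RVVO libraries than in both sham libraries, and its part in the results was not tested beyond the stricter limit of 5% on it. The 11 cardiomyocyte (CM) markers not used by the rule summed to 32549, 19892, 24418 and 22684 CPM in the members, with Myh6 the highest, against 53757, 52234, 48833 and 49953 in barcodes with Ryr2 at 1% or more. T and NK cell markers summed to 1.41, 9.82, 14.3 and 24.3 CPM, with Cd3e, Cd3d, Cd8a, Nkg7 and Klrb1c at 0 in every library. No barcode of a member occurred among the members of another library, although 28 to 70 barcodes were shared by pairs of libraries.

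Epicardial transcripts moved with the groups. The 9 epicardial markers summed to 108 and 93.3 CPM in the members in sham 1 and sham 2, and to 237 and 363 in RVVO 1 and RVVO 2, with Gpm6a the highest and none at 0. Members with at least 5 of these UMIs were 2, 2, 5 and 21 nuclei. Members with markers of any other class (at least 5 UMIs of epicardial, glial or T and NK cell markers, or 10 of endothelial, fibroblast or pericyte markers) were 66 in sham 1, 47 in sham 2, 49 in RVVO 1 and 148 in RVVO 2, or 23.5%, 16.3%, 30.2% and 39.3%. Scrublet marked 46 of the 281 members of sham 1, 44 of 288 of sham 2, 9 of 162 of RVVO 1 and 49 of 377 of RVVO 2 as doublets. Fibroblast markers summed to 1754, 1661, 2005 and 2473 CPM, with Lama2 the highest. Their part in the differences below was not tested, except where values without such barcodes are given.

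The share of resident-type macrophages among kept barcodes did not separate the groups. It was 2.16% (95% Wilson interval 1.93 to 2.43) in sham 1, 1.98% (1.76 to 2.22) in sham 2, 1.96% (1.69 to 2.29) in RVVO 1 and 2.98% (2.70 to 3.30) in RVVO 2, with intervals that cover counting error only. RVVO 2 stood above the other libraries and RVVO 1 at the level of the sham libraries. The mean was 2.07% ± 0.132 (SD, n = 2 libraries) after sham surgery and 2.47% ± 0.721 (SD, n = 2) after RVVO, which differ by 0.403 percentage points (two-sided exact permutation test, p = 1, where the smallest p that 4 libraries allow is 0.3333).

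The share moved with the way the rule was applied. When each barcode was thinned to 1000 UMIs before the rule was applied, the share was 3.06% and 2.86% in sham 1 and sham 2 and 3.66% and 4.83% in RVVO 1 and RVVO 2, and the groups no longer overlapped (exact permutation p = 0.3333). Another denominator was kept barcodes with Ryr2 under 1% and the 5-gene panel at 3 UMIs or more, before the other clauses. Among these the members were instead 36.0% and 36.1% after sham surgery and 24.9% and 27.4% after RVVO. Over 1 UMI of Ptprb, Pdgfra and Pdgfrb was found in 39.9%, 27.6%, 58.4% and 42.2% of those barcodes. Per 100 macrophage-like nuclei that failed only the limit on MHC II genes and Ccr2, termed MHC II or Ccr2 myeloid nuclei, there were 244, 172, 238 and 140 members, and the groups overlapped.

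**Figure D1:**
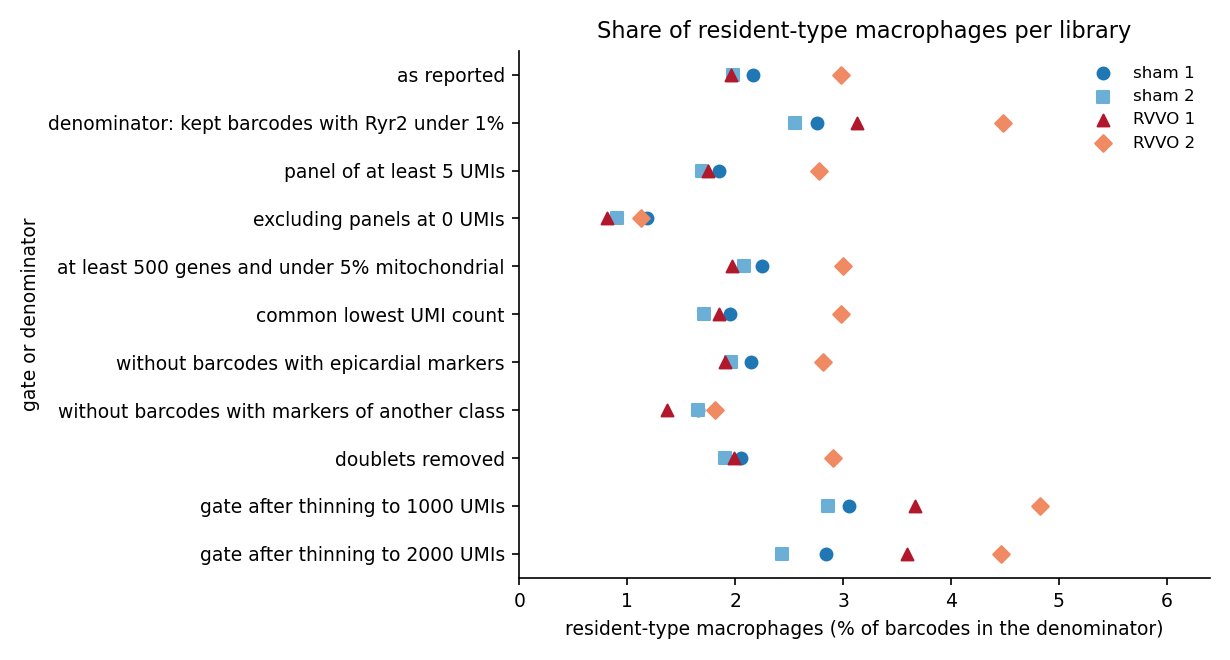
Share of resident-type macrophages (horizontal axis, % of the barcodes in the denominator) in each of the 4 libraries, 1 point a library, under the rule as stated (top row) and under other gates and denominators (vertical axis). Under the rule as stated the groups overlap. The sham points lie below both RVVO points after thinning to 1000 UMIs and among barcodes with Ryr2 under 1%.

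Between RVVO and sham, the clearest pattern in the members was in interferon-stimulated genes. All 30 genes of this list that could be tested had a log2 fold change below 0, with a median of -1.21, where 50.2% of the 8677 genes tested were below 0. In 28 of the 30 both RVVO libraries were below both sham libraries, against 16.0% of all genes tested, and 25 had an unadjusted p under 0.05 with a lower level, against 3.38% of all genes. No gene of the list passed an adjusted p of 0.05 in edgeR's quasi-likelihood test over all genes, where 0.115% of genes did, while DESeq2 called 5 of the list (0.226% of all genes it tested). In edgeR 8 of the list passed without sham 1, where 108 of all 9180 genes tested passed, and 16 without sham 2, where 111 of 9731 did. None of the list passed without RVVO 1 or without RVVO 2, where 31 of 9732 and 12 of 9107 genes did. With no filter on low counts 18 passed (148 of 17412 genes), with a replicate block 8 (58 of 8677), with the gate after thinning 5 (22 of 6489), and 1 each with library totals in place of TMM (17 of 8677) and with the excluding panels at 0 (20 of 5559). With only nuclei of at least 500 genes and under 5% mitochondrial transcripts, all 29 genes tested were below 0, with a median of -1.18.

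The summed level of the 33 list members in the files was 6162 and 5489 CPM in sham 1 and sham 2 and 2310 and 3354 in RVVO 1 and RVVO 2. The mean was 5825 ± 476 (SD, n = 2) after sham surgery and 2832 ± 739 (SD, n = 2) after RVVO, a ratio of 2.06. Every RVVO value was below every sham value, and RVVO 1 was the lowest.

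Bst2, which tethers budding viruses to the cell surface, had the lowest p of the list. It stood at 132 and 146 CPM in sham 1 and sham 2 and at 37.7 and 51.9 in RVVO 1 and RVVO 2, with a log2 fold change of -1.61 (SE 0.25, edgeR adjusted p = 0.0672). Both RVVO values lay far below both sham values. Herc6, a ligase that attaches the ubiquitin-like protein Isg15 to its targets in mice and was not in the list, was at 556, 365, 149 and 176 (log2 fold change -1.52, SE 0.26, adjusted p = 0.0906). Trim30a, a ubiquitin ligase that damps Toll-like receptor signalling, was at 460, 483, 208 and 219 (log2 fold change -1.16, SE 0.20, adjusted p = 0.0951). These 3 had the lowest p among genes lower in RVVO after Xist and Tsix.

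The transducers of interferon signalling Stat2, Irf7 and Irf9 were named after their values were seen, and none passed in edgeR. Stat2 was at 287 and 319 CPM in sham 1 and sham 2 and at 96.8 and 192 in RVVO 1 and RVVO 2. Irf7, which amplifies the production of type I interferon, was at 35.4, 39.3, 8.97 and 20.1. Irf9, which binds DNA together with Stat2, was the gene of the list with the smallest difference (53.8, 57.3, 30.5 and 53.5, log2 fold change -0.36). In each of these 3 genes the groups did not overlap and RVVO 1 was the lowest library, but RVVO 2 came within 1 CPM of sham 1 for Irf9.

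Antiviral effectors included the largest differences of the list. Isg15 was at 33.9, 18.0, 1.79 and 7.53 CPM (log2 fold change -2.24, SE 0.60), which rested on 24, 11, 1 and 9 UMIs. Ifit1, which binds foreign RNA, was at 49.5, 27.8, 5.38 and 10.0 (log2 fold change -2.22, SE 0.48), and the GTPase Mx1 at 126, 54.0, 19.7 and 22.6 (log2 fold change -2.10, SE 0.43). The most abundant members of the list were Samhd1, which degrades nucleotides (792, 717, 400 and 653), Rnf213 (610, 694, 255 and 335) and Parp14 (642, 592, 215 and 335). Ifi44 and Gbp3 were the members whose groups overlapped.

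**Figure D2:**
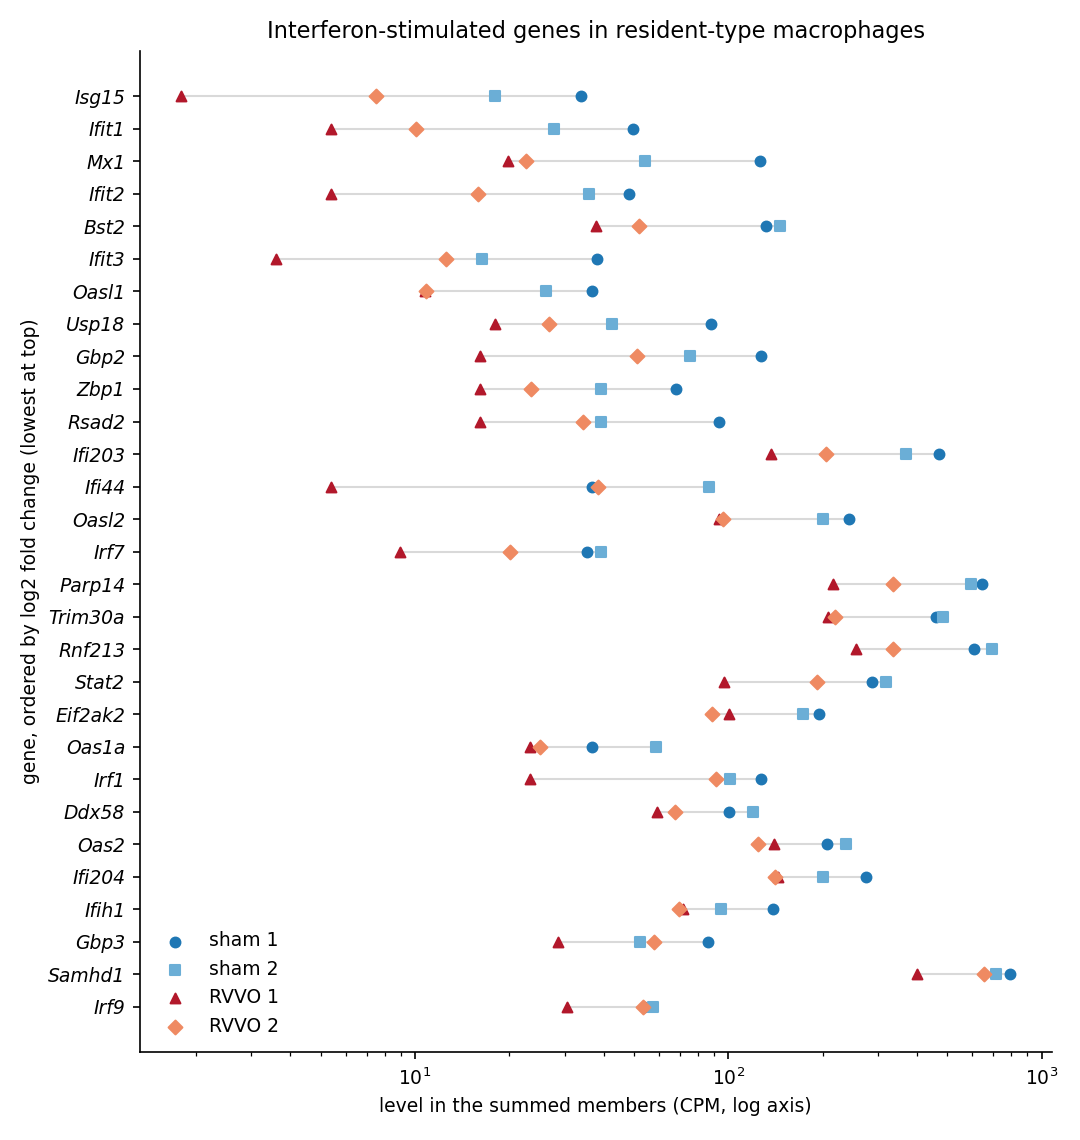
Level of 29 of the 30 tested interferon-stimulated genes (vertical axis, ordered by log2 fold change) in the summed resident-type macrophages of each library (horizontal axis, CPM, log axis), 1 point a library, with a grey line over the range. Both RVVO points lie below both sham points in every plotted gene except Ifi44 and Gbp3, where they overlap.

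Promoter sequence of these genes was not used to choose the nuclei. Stat2 and Irf9 act at a repeat known as the interferon-stimulated response element. Its core was searched as TTTCNNTTTC on the gene's strand and as GAAANNGAAA for the other strand in windows from 250 bases before to 50 after each gene's start (RefSeq, GRCm38.p6). Of 26 list members with a window, 16 held a match (61.5%), against 3.99% of the 27025 genes with a window. In the MHC I and antigen processing list it was 3 of 11. A match is a description of the letters, not evidence of binding. Windows are shown here for list members with low levels after RVVO, 30 bases each, 5′ to 3′ on the strand of the gene, with the match in capitals:
Bst2, chr8:71537577-71537606: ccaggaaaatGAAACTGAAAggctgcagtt
Trim30a, chr7:104465210-104465239: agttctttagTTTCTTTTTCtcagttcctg
Ifi203, chr1:173942508-173942537: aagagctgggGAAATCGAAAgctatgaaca
Ifit1, chr19:34640794-34640823: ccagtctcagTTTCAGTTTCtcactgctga
Stat2, chr10:128270266-128270295: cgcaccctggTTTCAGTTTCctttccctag
Isg15, chr4:156200865-156200894: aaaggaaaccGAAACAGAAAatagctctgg
Gbp2, chr3:142620594-142620623: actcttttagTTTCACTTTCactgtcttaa
Ifit3, chr19:34583397-34583426: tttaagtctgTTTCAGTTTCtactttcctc

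The match in capitals began 124 bases before the start of Bst2, 85 before that of Ifit1 and 66 before that of Isg15. Bst2, Ifit1, Isg15 and Ifit3 held further matches, which are not in capitals. Those of Bst2 and Isg15 overlap the match shown. In Bst2, Trim30a, Ifi203 and Isg15 the gene lies on the minus strand of the chromosome, and in the other 4 on the plus strand. Ifi203 was at 471 and 370 CPM in sham 1 and sham 2 and at 136 and 205 in RVVO 1 and RVVO 2, Gbp2 at 127, 75.3, 16.1 and 51.0 and Ifit3 at 38.2, 16.4, 3.59 and 12.5. Every RVVO library was below every sham library in these genes, which were shown for their low levels after RVVO. Gbp3 also held a match, is not shown, and overlapped between the groups.

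The lower level was seen across the nuclei. With each member thinned to 1000 UMIs, which kept 253, 230, 159 and 377 nuclei, a nucleus held a mean of 6.49 and 5.69 interferon-stimulated UMIs in sham 1 and sham 2 and of 2.56 and 3.52 in RVVO 1 and RVVO 2 (exact permutation p = 0.3333, the smallest possible). At least 3 such UMIs were found in 86.2% and 80.4% of sham members and in 35.8% and 56.0% of RVVO members. The tenth of the nuclei with the most held 26.2%, 22.5%, 32.9% and 27.5% of these UMIs. In barcodes with Ryr2 at 1% or more, thinned in the same way, the mean was 1.27, 0.624, 0.322 and 0.495.

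**Figure D3:**
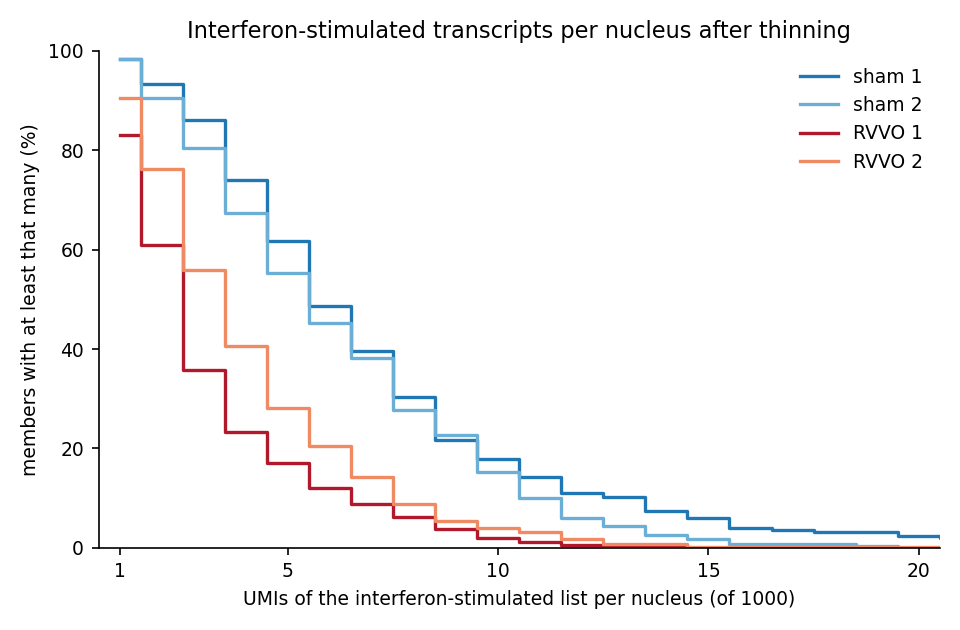
Share of resident-type macrophages (vertical axis, %) with at least the number of interferon-stimulated UMIs on the horizontal axis, after thinning each nucleus to 1000 UMIs, 1 line a library. At 3 UMIs the sham lines are at 86.2% and 80.4% and the RVVO lines at 35.8% and 56.0%.

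The difference was not particular to these macrophages. The median log2 fold change of the list was -1.46 in all other kept barcodes (32 of 33 genes below 0), -1.13 in MHC II or Ccr2 myeloid nuclei (28 of 28 below 0), -0.89 in cycling macrophage nuclei (18 of 18) and -1.24 in barcodes with Ryr2 at 1% or more (31 of 32). Over all genes tested, 50.2%, 47.9%, 50.4% and 49.2% were below 0 in these populations, in the same order. They come from the same libraries and so are not independent of each other. In a model of both populations with the library as a block, the difference in the members was set against that in all other barcodes, and 1 of 33 genes passed (Gbp3), with 6 at an unadjusted p under 0.05. Of all genes tested in that model 0.237% passed and 6.26% were at an unadjusted p under 0.05. Gbp3 was at 86.3, 52.4, 28.7 and 57.7 CPM in the members, and its log2 difference between the groups was smaller in size in the members than in the other barcodes by 1.30 (SE 0.30, adjusted p = 0.0103). Without the members that held markers of another class the difference was 1.26 (adjusted p = 0.240). Against MHC II or Ccr2 myeloid nuclei 0 of 31 passed in edgeR, with 0 at an unadjusted p under 0.05, where 3.61% of all genes in that model were.

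The level itself was higher in macrophages. The summed list was 1.97, 2.58, 2.89 and 2.76 times as high in the members as in all other kept barcodes of sham 1, sham 2, RVVO 1 and RVVO 2. In MHC II or Ccr2 myeloid nuclei it was at 6497, 6172, 2872 and 3395 CPM, close to the members of the same libraries.

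Genes of MHC class I and antigen processing had log2 fold changes in the same direction, without a gene that passed. All 14 tested had a log2 fold change below 0, with a median of -0.77, 9 did not overlap between the groups with a lower level in RVVO, against 16.0% of all genes tested, and 8 had an unadjusted p under 0.05 with a lower level, against 3.38%. None passed the adjusted threshold in edgeR or in DESeq2, while in edgeR 3 passed without a filter on low counts (148 of all 17412 genes), 3 without sham 2 (111 of 9731), and 1 each with a replicate block (58 of 8677), with the gate after thinning (22 of 6489) and without sham 1 (108 of 9180). The median was -1.23 without RVVO 2, and without RVVO 1 it was -0.60 with 11 of 14 below 0. Nlrc5, the transactivator of MHC class I genes, was at 250, 216, 55.6 and 121 CPM (log2 fold change -1.36, SE 0.31, adjusted p = 0.220). Tapbp, which helps to load peptides, was at 130, 118, 37.7 and 69.4 (log2 fold change -1.17, SE 0.29, adjusted p = 0.282), and the immunoproteasome subunit Psmb9 at 82.0, 65.5, 16.1 and 40.1. The class I heavy chain gene H2-K1 overlapped between the groups, at 389, 416, 253 and 473, as did B2m, at 376, 340, 262 and 374. RVVO 1 was the lowest library for all 5 of these genes, and in all other kept barcodes the median of the list was -1.01.

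In all, 10 of 8677 genes passed an adjusted p of 0.05 (0.115%), 8 higher (0.0922%) and 2 lower in RVVO (0.0230%), and 573 had an unadjusted p under 0.05. Of these 10, 6 were genes of sex chromosomes. Xist, the RNA that silences an X chromosome in females, fell in the RVVO libraries, where it was at 2043 and 2340 CPM in sham 1 and sham 2 and at 0 in RVVO 1 and RVVO 2, at least 1274-fold lower against a floor of 3 UMIs over the group (adjusted p = 3.28e-05). Tsix, its antisense partner, was at 249, 306, 1.79 and 0, and reads of both could not be told apart if strand was not used in counting. The Y-linked genes Uty, Eif2s3y and Kdm5d were at 0 in both sham libraries and at 321, 87.9 and 64.6 CPM in RVVO 1 and 325, 141 and 72.8 in RVVO 2, at least 142-fold, 54.4-fold and 30.8-fold higher in RVVO. Ddx3y was at 1.41 and 0 in the sham libraries and at 113 and 139 in the RVVO libraries. Their X-linked partners Kdm6a, Kdm5c, Eif2s3x and Ddx3x were lower in RVVO without overlap, and none passed (adjusted p = 0.324 to 0.888).

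The other 4 called genes all rose in RVVO. Snx17, a sorting nexin that returns receptors such as Lrp1 from endosomes to the cell surface (chr5:31193227-31199143 on the plus strand of GRCm38, overlapping Eif2b4 and Zfp513 on the other strand), was at 18.4 and 13.1 CPM in sham 1 and sham 2 and at 213 and 197 in RVVO 1 and RVVO 2. That was a log2 fold change of 3.65 (SE 0.29, adjusted p = 0.000451), and the groups lay far apart. After thinning to 1000 UMIs, a Snx17 UMI was found in 1.58%, 1.30%, 17.6% and 18.8% of members and in 1.20%, 0.884%, 9.68% and 11.9% of barcodes with Ryr2 at 1% or more. In all other kept barcodes Snx17 was at 15.1, 12.1, 104 and 128 CPM and also passed (log2 fold change 3.05, adjusted p = 0.0328). The difference between the members and those barcodes did not pass (interaction 0.61 on the log2 scale, adjusted p = 0.889).

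BC018473, annotated as an antisense transcript at chr11:116752167-116759373, was at 22.6 and 26.2 CPM in sham 1 and sham 2 and at 108 and 131 in RVVO 1 and RVVO 2 (log2 fold change 2.28, SE 0.28, adjusted p = 0.0126). Over 19 other settings its log2 fold change was 2.15 to 2.54. It was not called in 4 of them, among them the one without RVVO 2. In MHC II or Ccr2 myeloid nuclei it was at 52.2, 18.9, 371 and 186.

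Muc16, a membrane mucin of the epicardium and other mesothelia, and Pcdh15, a protocadherin, completed the calls. Muc16 was at 7.07, 6.55, 53.8 and 73.6 CPM in the members (log2 fold change 3.20, SE 0.40, adjusted p = 0.0147), and Pcdh15 at 7.07, 13.1, 68.1 and 61.9 (log2 fold change 2.67, SE 0.38, adjusted p = 0.0420). These UMIs were concentrated in the few members that held epicardial markers. Of 88 Muc16 UMIs in RVVO 2, 77 lay in 21 nuclei, and of 30 in RVVO 1, 23 lay in 5 nuclei. For Pcdh15 those nuclei held 65 of 74 and 32 of 38. Without the members that held at least 5 epicardial UMIs, a setting added after the data were seen, neither gene kept enough UMIs to be tested. Gpm6a, another epicardial marker, had a log2 fold change of 1.63 with those nuclei and of -0.19 without them. Muc16 and Gpm6a are themselves in the marker list by which these nuclei were found. When the rule was applied to barcodes thinned to 1000 UMIs, the log2 fold change of Muc16 was 0.19 (adjusted p = 0.976).

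Among growth factor genes none passed over all genes tested. Pdgfc, a ligand of the PDGF receptor alpha on fibroblasts, was at 62.2 and 57.3 CPM in sham 1 and sham 2 and at 244 and 161 in RVVO 1 and RVVO 2 (log2 fold change 1.72, SE 0.28, adjusted p = 0.0755). It passed under 12 of 19 other settings, with log2 fold changes of 1.36 to 2.04. The higher level of Pdgfc was not particular to the members. In MHC II or Ccr2 myeloid nuclei Pdgfc was at 52.2, 48.3, 155 and 104 CPM (log2 fold change 1.34). In all other kept barcodes it was at 7.51, 7.12, 13.1 and 14.5. The interaction with the myeloid nuclei was 0.35 on the log2 scale and did not pass. Igf1, chosen after its values were seen, was at 38.2, 45.8, 96.8 and 100 in the members (log2 fold change 1.22, SE 0.26, adjusted p = 0.173). After thinning to 1000 UMIs, Pdgfc was found in 6.72%, 3.91%, 11.9% and 14.3% of the members and Igf1 in 4.74%, 3.04%, 9.43% and 9.28%, against at most 0.845% of barcodes with Ryr2 at 1% or more for either gene. Of the 12 genes tested in the list of growth factors and repair ligands, 11 had a log2 fold change above 0, 2 had an unadjusted p under 0.05 with a higher level, against 3.23% of all genes tested, and none passed in edgeR. Without RVVO 2 the median of the list went from 0.16 to -0.03, with 7 genes above 0 and 7 below. Vegfa, the angiogenic factor, was at 163, 126, 93.2 and 134, and Timp2, an inhibitor of matrix metalloproteinases, at 115, 113, 106 and 133, and both overlapped between the groups.

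Genes of resident identity did not move together. Of 23 tested, 15 had a log2 fold change above 0 and 8 below, 9 and 5 without overlap, against 18.4% and 16.0% of all genes tested. None passed in edgeR or in DESeq2. In edgeR, among the settings that kept all 4 libraries, 4 of 25 passed with no filter on low counts (148 of all 17412 genes). With a replicate block 1 of 23 passed (58 of 8677). An unadjusted p under 0.05 was found for 6 with a higher level, against 3.23% of all genes, and for 2 with a lower level, against 3.38%. Timd4 was at 82.0 and 108 CPM in sham 1 and sham 2 and at 30.5 and 40.1 in RVVO 1 and RVVO 2 (log2 fold change -1.40, SE 0.28, adjusted p = 0.158). Lyve1 was at 173, 149, 145 and 102, and Folr2, a folate receptor, at 41.0, 49.1, 30.5 and 30.1. Siglec1, a lectin that binds sialic acid, was at 66.5, 68.7, 34.1 and 28.4. In the opposite direction, Cd163 was at 381, 571, 818 and 685 (log2 fold change 0.65, SE 0.25, adjusted p = 0.651) and Vsig4, a complement receptor, at 8.49, 18.0, 23.3 and 51.9. In all 6 of these genes the groups did not overlap, but Timd4, Lyve1, Folr2, Siglec1 and Vsig4 were named after their values were seen.

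Timd4, Lyve1 and Folr2 mark a subset of cardiac resident macrophages that is largely independent of monocytes. After thinning to 1000 UMIs, a UMI of any of the 3 was found in 26.1% and 26.1% of the members of sham 1 and sham 2 and in 18.2% and 10.3% of those of RVVO 1 and RVVO 2, against 0.583% to 0.845% of barcodes with Ryr2 at 1% or more. A UMI of Cd163 or Vsig4 was found in 28.1%, 24.8%, 36.5% and 40.6%. These groupings were made after the values were seen and carry no test. Within each library, members with a Timd4, Lyve1 or Folr2 UMI held a mean of 7.00, 6.30, 2.45 and 3.69 interferon-stimulated UMIs of 1000, and those without held 6.30, 5.47, 2.58 and 3.50. RVVO values were below sham values in both sets. A nucleus without such a UMI at that depth can still express these genes, so the split does not separate subsets. In sham 1 the share with a UMI went from 14.6% at 500 UMIs to 38.9% at 2000.

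**Figure D4:**
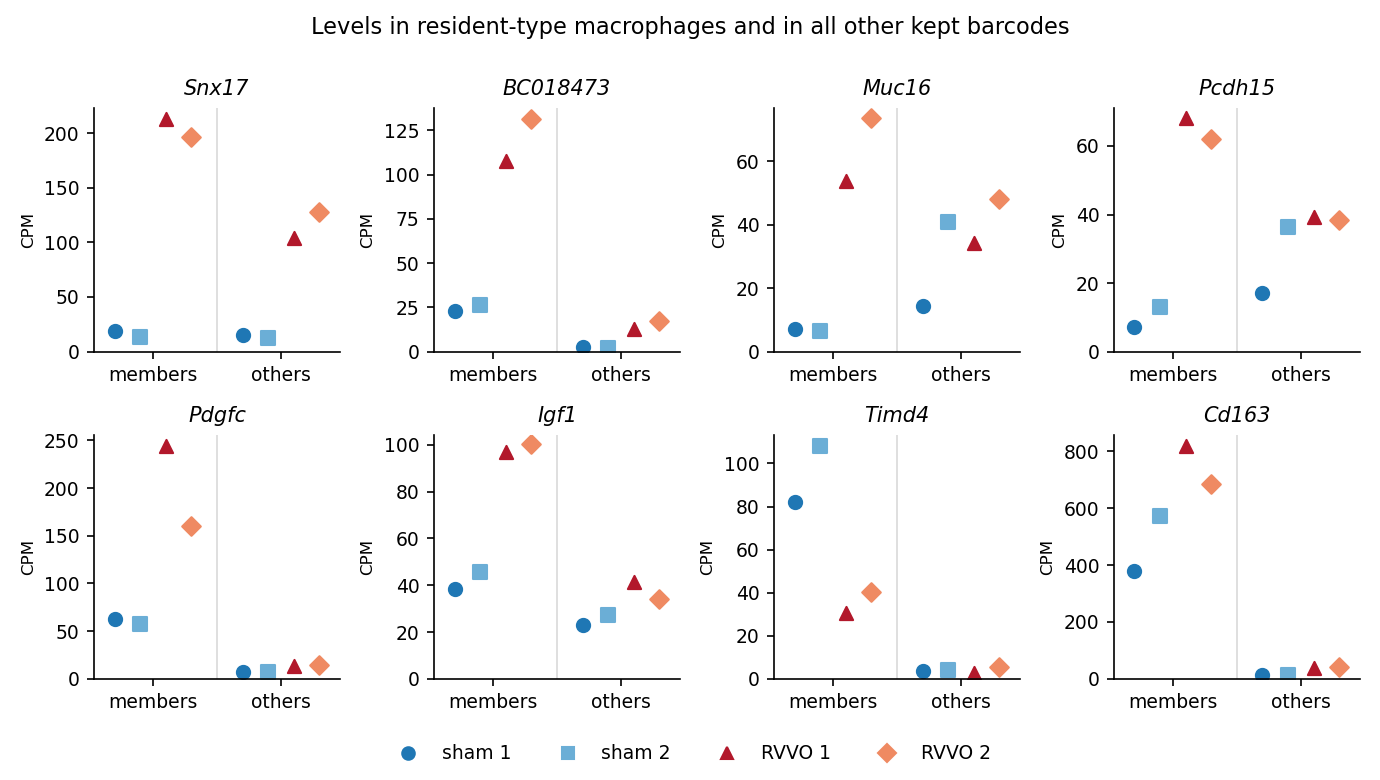
Levels of 8 genes (vertical axes, CPM) in the summed resident-type macrophages (left of each panel) and in all other kept barcodes (right), 1 point a library. Snx17 and BC018473 are higher in both RVVO libraries on both sides, Muc16 overlaps between the groups in the other barcodes, and Timd4 is lower in both RVVO libraries in the members.

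In the other gene lists of macrophage functions no gene passed the adjusted threshold in edgeR. Among 35 transcription factors tested, 9 were higher and 5 lower in RVVO without overlap, against 18.4% and 16.0% of all genes tested, and 1 and 2 had an unadjusted p under 0.05, against 3.23% and 3.38%. Rbpj, the effector of Notch signalling, was at 2610, 3556, 2982 and 2621 CPM, Zeb2 at 1606, 2753, 2407 and 2640 and Maf, which drives the resident programme, at 727, 710, 1062 and 839. The range within a group was as wide as the gap between groups for Rbpj and Zeb2, while Maf was higher in both RVVO libraries (log2 fold change 0.39, adjusted p = 0.862).

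The 3 most abundant genes for the uptake of dying cells overlapped between the groups. Elmo1, which links uptake receptors to the cytoskeleton, was at 1024, 1118, 1099 and 881 CPM, the scavenger receptor Cd36 at 1123, 787, 746 and 891, and Dock4, an exchange factor for Rac, at 767, 543, 689 and 676. Mertk was at 504, 633, 834 and 601, which overlapped too. Of the 22 tested genes of this list, 14 were above 0 and 8 below, and 3 were higher and 3 lower in RVVO without overlap, Timd4 among the latter, where 18.4% and 16.0% of all genes were. Of 27 lysosomal genes 13 were above 0, and of 27 genes of lipid handling also 13. Hpgd, which inactivates prostaglandins and was named after its values were seen, was at 55.2, 85.1, 192 and 133 (log2 fold change 1.18, SE 0.29, adjusted p = 0.282).

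Over 15 complement genes tested the median log2 difference was 0.21, and 3 had an unadjusted p under 0.05, each higher in RVVO, against 3.23% of all genes. The list summed to 1695 and 1861 CPM in sham 1 and sham 2 and to 2107 and 2398 in RVVO 1 and RVVO 2, without overlap. Over 14 genes of iron and haem handling the median was -0.03, with 7 above 0 and 7 below, and between -0.15 without RVVO 2 and 0.18 without sham 2 when 1 library was left out. C1qa and C1qb overlapped between the groups. In the list of growth factor and cytokine receptors the median was 0.16 over 23 tested, and -0.05 without sham 1 against 0.30 without sham 2. Il6ra was at 287, 383, 439 and 338 and Tgfbr2 at 201, 229, 217 and 214.

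Inflammatory mediators were sparse. Of 26 in the files 10 could be tested, with a median of -0.41 and 7 below 0. The median was -0.22 without sham 1, and 0.03 with 2 of 7 genes below 0 in members thinned to 1000 UMIs. Of the 10, 4 were lower in RVVO without overlap, against 16.0% of all genes, and 3 had an unadjusted p under 0.05 with a lower level, against 3.38%. The list summed to 624, 563, 418 and 515 CPM. Of the 26, Il1a, Il12a and Il12b had no UMI in any library. The chemokine Ccl2, which recruits monocytes and was named after its values were seen, was at 28.3, 31.1, 1.79 and 12.5 CPM (log2 fold change -1.77, SE 0.55, adjusted p = 0.472). Ccl6 was at 123, 118, 100 and 142, and Alox5, which starts the synthesis of leukotrienes, at 80.6, 101, 111 and 61.1. Genes of alternative activation had 4 tested members, among them Mgl2, a lectin, at 69.3, 99.8, 64.6 and 25.9. Stat6 at 73.6, 73.6, 48.4 and 75.3 and Clec10a at 63.7, 44.2, 48.4 and 72.8 overlapped between the groups. Toll-like receptor and inflammasome genes had a median of 0.01 over 25 tested, and -0.28 without sham 1. Fc receptors had one of 0.06 over 7, and -0.30 without RVVO 2.

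Genes of glucocorticoid response were above 0 in 8 of 11, with Fkbp5 at 1175, 858, 1576 and 1053 CPM and Zbtb16 at 944, 735, 1600 and 959. RVVO 1 was the highest library for both, and without it 6 of 12 genes of the list were above 0. Immediate early genes, which can be switched on while tissue is taken apart, had a median of 0.21 over 12 tested, with Klf6 at 117, 133, 147 and 149. That median was -0.07 without RVVO 2, -0.14 with members thinned to 1000 UMIs and -0.28 with the excluding panels at 0. All 16 nuclear genes of mitochondrial respiration were below 0, with a median of -0.21 and no gene without overlap, but the direction rested on sham 1. Without sham 1 all 16 were above 0, with a median of 0.23, and above a common lowest UMI count 11 of 16 were above 0, with a median of 0.08. Cox6c was at 1392, 882, 920 and 1080, with sham 1 the highest.

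**Figure D5:**
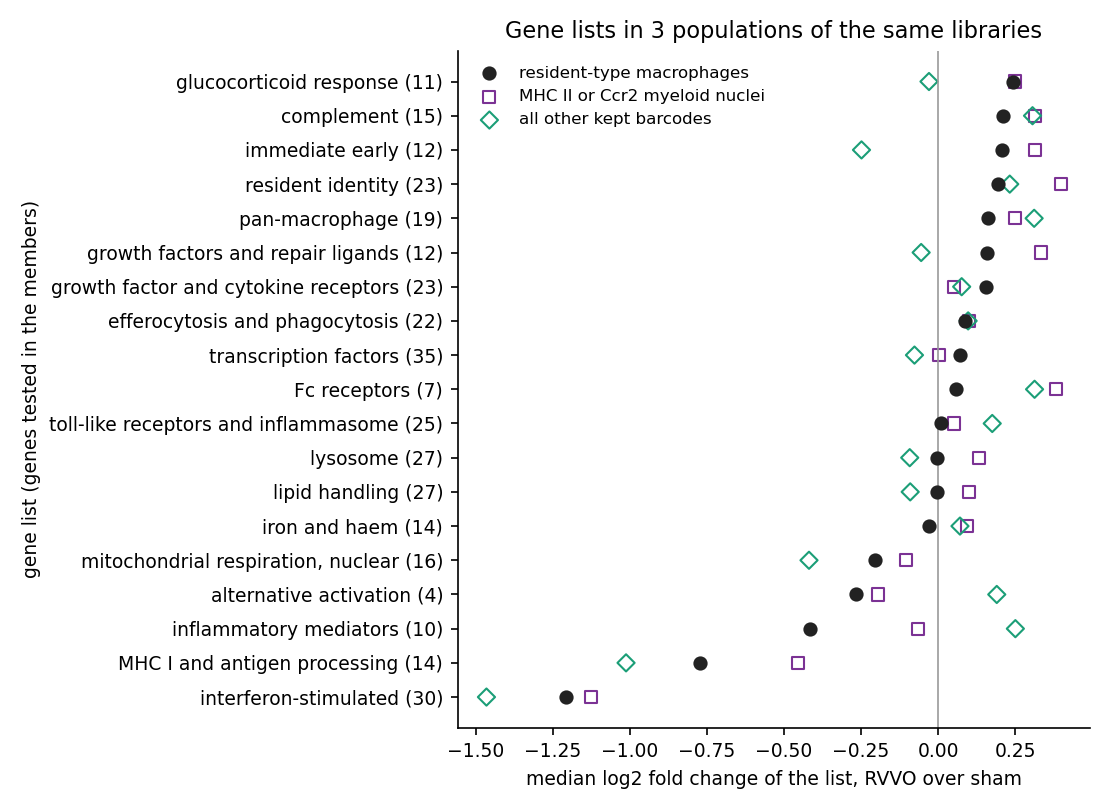
Median log2 fold change, RVVO over sham, of 19 gene lists (vertical axis, with the number of genes tested in the members) in resident-type macrophages (filled circles), MHC II or Ccr2 myeloid nuclei (open squares) and all other kept barcodes (open diamonds). The interferon-stimulated list lies at -1.21, -1.13 and -1.46, and the MHC I and antigen processing list is the only other one below -0.50 in the members.

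The same libraries allowed the RVVO difference of the members to be set against that of other nuclei. Against all other kept barcodes, 40 of 16912 genes passed (0.237%), 31 with a more positive difference in the members. Wdr17, Muc16, Gpc3, Pcdh15 and Gpm6a were among the 31. For Wdr17, 306 of 344 UMIs in RVVO 2 lay in the 21 members with epicardial markers, and for Gpc3, 49 of 71. When members that held markers of another class were left out, 8 genes passed, of which 5 were among the 40. Cd163 was among the 9 with a more negative difference in the members, -0.87 on the log2 scale (SE 0.21, adjusted p = 0.0190, and 0.0758 without the members that held markers of another class), with 12.5, 14.2, 36.8 and 42.3 CPM in the other barcodes. The other barcodes include nuclei with the 5-gene macrophage panel that failed another clause. Barcodes with Ryr2 under 1% and that panel at 3 UMIs or more, members included, differed in number between the libraries. They were 780 of 12982 kept barcodes in sham 1, 798 of 14564 in sham 2, 651 of 8247 in RVVO 1 and 1375 of 12635 in RVVO 2. The part of this mix in the Cd163 difference was not tested. Against MHC II or Ccr2 myeloid nuclei, 1 of 9077 genes passed (0.0110%), namely Muc16.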

How the data were processed

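Single-nucleus RNA libraries of RV tissue from 2 sham and 2 RVVO samples were used. The authors deposited a matrix of raw UMI counts for each library, made with Cell Ranger on the mouse genome GRCm38 (mm10). The submitters' processing notes name Cell Ranger 3.0.1, STAR and Seurat 3.0.2, while the matrices carry version 5.0.0 in their headers. Whether strand was used is not given in the sources. Of the 27998 gene identifiers, 98.7% were found in the annotation. The 53090 barcodes were filtered to at least 200 genes and under 10% mitochondrial UMIs, and doublets were kept in the reported values. Cell types were not clustered, and members were picked by the gate. The members and the gene lists were chosen with earlier results of these data known.

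UMI counts of the members were summed per library and compared with edgeR 4.0.16 (quasi-likelihood test, TMM normalization, filterByExpr, group as the only term) in R 4.3.3, with Benjamini-Hochberg adjustment over all genes tested and a threshold of 0.05. SE is the log2 fold change divided by the square root of F. Levels (CPM) are UMIs of the summed members scaled to a total of 1000000, without TMM. Interactions were fitted over the members and a second population with the library as a block. Single values were compared by the exact two-sided permutation test over 4 libraries. Shares of nuclei and UMIs per nucleus were computed after thinning each nucleus to 1000 UMIs, leaving out shallower ones. On simulated counts of 8668 genes with 200 changed, the test recovered 36% of log2 changes of 1 and 93% of changes of 2. Of the calls, 1.53% were false. The changed genes were drawn from the more abundant genes only, and every gene had the same dispersion (0.0291), in a single draw. These rates therefore do not describe genes at low levels or with a wider spread.

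The genes named were the called genes with the largest change whose groups did not overlap (up to 10 in each direction, without Gm, Rik, ribosomal and mitochondrial genes, and filled up to 5 by lowest p where fewer were called), every called list member, the 3 most abundant members of each list, the sex genes and the genes of the gate. Other named genes, among them the single interferon-stimulated and MHC I genes beyond these, were chosen after their values were seen. Alternatives were other normalizations, DESeq2 1.42.0, no filter on low counts, a replicate block, stricter barcode filters, other gates, doublets removed with Scrublet (scanpy 1.11.5) and leaving out each library. Intervals and floors cover counting error only. Results for some genes are not reported here.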

Additional observations from a re-analysis of the deposited data

Results flagged for a closer look

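In 5 genes the RVVO difference in resident-type macrophages departed from that in all other kept barcodes by a test of the interaction, with the lowest adjusted p of that test. The interaction was 2.08 on the log2 scale for Csmd1, 1.84 for Wdr17, 2.59 for Muc16, 2.46 for Gpc3 and 1.62 for Bicd1. Csmd1 was at 178, 4.91, 360 and 83.6 CPM in the members in sham 1, sham 2, RVVO 1 and RVVO 2, so its groups overlapped. When members with markers of another class were left out, none of Csmd1, Wdr17, Muc16, Gpc3 and Bicd1 passed, with interactions of -1.18, -1.15, 0.09, 0.97 and -0.92.

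Against MHC II or Ccr2 myeloid nuclei, Muc16 had an interaction of 4.57 on the log2 scale (SE 0.63, edgeR adjusted p = 0.00178). Fitted separately, its log2 fold change was 3.20 in the members and -1.35 in the myeloid nuclei. In the members, nuclei with epicardial markers held 23 of 30 Muc16 UMIs in RVVO 1 and 77 of 88 in RVVO 2. In the myeloid nuclei Muc16 was at 34.8 and 63.0 CPM in sham 1 and sham 2 and at 3.60 and 26.0 in RVVO 1 and RVVO 2.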

How the results depend on the processing

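Against 10 genes called in the members, 17 were called with library totals in place of TMM, 21 with DESeq2, 148 without a filter on low counts, 16 above a common lowest UMI count, 20 with the excluding panels at 0 UMIs, 22 with the gate after thinning to 1000 UMIs, and 12 to 111 when 1 library was left out. The cause was not tested. The sex genes and Snx17 were called under all 19 alternatives. The count was 7 with doublets removed and with members thinned to 1000 UMIs, without BC018473, Muc16 and Pcdh15 in both, and 9 with a panel of at least 5 UMIs, without Muc16 and Pcdh15. BC018473 was lost under 4 alternatives, though its log2 fold change stayed at 2.15 to 2.54 over all 19. The libraries of both groups share only a number (correlation of deviations -0.04), and a replicate block gave 58 calls.

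The difference in share, 0.403 percentage points, was reversed to -9.91 among barcodes with the 5-gene panel, to -0.0742 with the excluding panels at 0 and to -0.0641 without barcodes with markers of another class, and leaving out 1 library gave values between -0.107 (RVVO 2 left out) and 0.913 (RVVO 1 left out). Against all other barcodes, the 40 interaction calls became 8 without barcodes with markers of another class, and 13 to 46 when 1 library was left out. Against myeloid nuclei, 1 call became 16 without a filter, 2 without barcodes with markers of another class and 4 to 67 when 1 library was left out. Gpm6a was reversed to -0.19 without barcodes with epicardial markers. The median of the interferon-stimulated list stayed below 0 under all 19 alternatives, from -0.89 with members thinned to 1000 UMIs to -1.63 without RVVO 2.

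With 2 libraries a group, single values cannot reach a permutation p below 0.3333, and genes with few UMIs in 557651 to 1195521 per library carry wide errors.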
